A study of Drosophila melanogaster with 3 samples.

Results

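Chromatin bound by the fly protein CG30403 was examined at 635 regions whose summits lie between genes but near a gene start. They were chosen by position alone: the summit, which is the base that the deposited list marks in each region, had to fall outside every annotated gene other than transposable elements, with the nearest protein-coding transcription start site (TSS) more than 500 and at most 5000 bp away. They are 635 of the 7827 regions in the reproducible ("optimal") list, or 8.11% (95% exact binomial interval 7.52 to 8.74%). The material was whole Drosophila melanogaster embryos, collected 0 to 24 h after laying and of mixed sex, from 1 transgenic line in which CG30403 carries green fluorescent protein (GFP) at its C terminus, and chromatin was precipitated with an antibody to GFP. The study has 1 group with 3 biological replicates, so it holds no comparison between conditions; input or control libraries were not analysed here, and the labels name 1 line and do not say what drives the fusion gene. Whole embryos mix every tissue and embryonic stage, so the tissue in which a region is bound is not known.

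DNA between genes but near their starts holds many of the enhancers, silencers and insulators that control when and where a gene is read. An enhancer binds sequence-specific proteins and acts on a promoter at a distance, in either orientation, while an insulator separates neighbouring genes from each other. In the compact fly genome such elements are often found upstream of a gene, in introns, or in the gap shared by a pair of genes. Their DNA is often depleted of nucleosomes. The nearest gene is a label of position and need not be the gene an element acts on.

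Sequences are shown for 9 of the 12 strongest members found in the top list of every replicate, with CG31668 first and the others in order of signal value, so that the base composition described further on can be read from them; the other 3 are not shown here. The last sequence, at slp2, was added for a word it holds. All are plus-strand sequence of the RefSeq genome, Release 6 (dm6 coordinates), and each is named by the nearest coding gene. Runs of at least 6 A or T bases are in capitals. The first is a 300-base window, which shows the A+T-rich middle with flanks of mixed composition, and the others are the 101 bases centred on the summit.
CG31668 chr2L:2202266-2202565: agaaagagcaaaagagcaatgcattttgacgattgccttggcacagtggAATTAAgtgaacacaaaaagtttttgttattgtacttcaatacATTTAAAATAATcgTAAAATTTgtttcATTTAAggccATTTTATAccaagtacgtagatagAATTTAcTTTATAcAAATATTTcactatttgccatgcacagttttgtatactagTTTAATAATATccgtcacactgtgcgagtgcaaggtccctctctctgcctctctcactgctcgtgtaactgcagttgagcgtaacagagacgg
tara chr3R:16222453-16222553: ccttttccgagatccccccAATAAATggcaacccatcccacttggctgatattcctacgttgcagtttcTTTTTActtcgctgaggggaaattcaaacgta
sp3 chr3R:21520329-21520429: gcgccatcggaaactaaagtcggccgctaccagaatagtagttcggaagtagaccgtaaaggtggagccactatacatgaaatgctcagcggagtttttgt
tara chr3R:16224465-16224565: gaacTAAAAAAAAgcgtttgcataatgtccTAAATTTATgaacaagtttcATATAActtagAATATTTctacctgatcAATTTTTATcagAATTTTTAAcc
CG17896 chrX:493957-494057: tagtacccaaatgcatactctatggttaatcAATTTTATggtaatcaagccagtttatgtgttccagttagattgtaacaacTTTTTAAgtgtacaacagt
CG3149 chrX:5696481-5696581: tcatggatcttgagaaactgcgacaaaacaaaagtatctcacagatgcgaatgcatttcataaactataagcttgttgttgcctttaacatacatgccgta
RasGAP1 chr3L:9855891-9855991: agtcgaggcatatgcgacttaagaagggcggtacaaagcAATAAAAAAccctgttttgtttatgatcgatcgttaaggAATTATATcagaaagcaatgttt
stck chr3R:8355692-8355792: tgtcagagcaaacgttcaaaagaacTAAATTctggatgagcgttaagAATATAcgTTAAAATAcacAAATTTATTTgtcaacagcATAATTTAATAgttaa
DNAlig3 chr3R:12403058-12403158: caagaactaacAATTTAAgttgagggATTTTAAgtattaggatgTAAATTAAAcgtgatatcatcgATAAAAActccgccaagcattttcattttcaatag
slp2 chr2L:3832463-3832563: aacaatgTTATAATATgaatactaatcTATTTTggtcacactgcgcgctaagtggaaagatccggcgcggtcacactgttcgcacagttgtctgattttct
The CG31668 middle, the second tara region (nearer to its TSS), stck and DNAlig3 have many A/T runs: their 101-base centres hold 26.7, 24.8, 27.7 and 29.7% G+C. The CG17896 and RasGAP1 centres hold 31.7 and 36.6%, with a few runs. The CG3149 centre (36.6%) and the sp3 centre (48.5%) hold no run of 6, and the first tara centre holds 45.5% G+C. At 6 of the 9 the centre was lower in G+C than its flanks 200 to 250 bp away, as at CG31668 (59.8% in the flanks). It was higher at the first tara region (43.1%), sp3 (29.4%) and DNAlig3 (18.6%). The slp2 centre carries 2 copies of ggtcacact, the core of the promoter element called Motif 1, and it was the only member of 635 with that core within 50 bp of the summit (this feature was picked after its values were seen).

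The strongest region with every replicate behind it lay 3332 bp downstream of the start of CycB, which encodes the mitotic cyclin B, in the 1340 bp gap between CycB and the convergent gene blw. Its signal value, the enrichment score the authors' files give each region, was 1903, rank 79 of 7827. In the replicate lists, where each member takes the rank of the strongest replicate region that overlaps it, it stood at ranks 101, 96 and 65, with signal values of 293, 793 and 830. Signal values are on a different scale in each list, so ranks are the fairer comparison, and on ranks CycB was among the strongest 101 regions in all 3 replicates.

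A pair of strong regions flanked Psc, a Polycomb group gene whose product is part of a complex that keeps developmental genes silent. One lay 4198 bp upstream of the Psc TSS (chr2R:12984979-12985443), with a signal value of 1709 and replicate ranks of 71, 80 and 182. The other lay in the 10284 bp gap between Psc and CG13321, 4677 bp past the CG13321 start, with a signal value of 1657 and replicate ranks of 49, 161 and 117. A second, weak member upstream of Psc (signal value 132) was outside the top list of replicates 2 and 3, at ranks 9713 and 8696.

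The gene taranis (tara), which encodes a nuclear regulator linked to the cell cycle and to Trithorax group genes, had 4 members upstream of it in the 20400 bp gap to mtSSB. The summits stood at -3799, -3465, -3148 and -1136 bp from the TSS, with signal values of 865, 955, 1694 and 1449. The first 3 overlap 1 region in replicates 2 and 3 (ranks 189 and 46), so they are not 3 independent sites, whereas the summit at -1136 bp was a separate region at ranks 183, 198 and 143. No optimal summit lay at most 500 bp from a tara TSS.

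The rest of the 12 strongest members found in the top list of every replicate had signal values from 1633 down to 1138. Downstream of the CG31668 start, at 3750 bp, ranks were 116, 166 and 97. Close to gene starts, the sp3 region at -549 bp had ranks 416, 118 and 116, the CG17896 region at -512 bp had 374, 235 and 151, and the RasGAP1 region at -656 bp had 311, 242 and 179; RasGAP1 encodes a protein that switches Ras off. All 3 were weaker by rank in replicate 1 than in the other 2. The CG3149 region at -1326 bp had ranks 361, 290 and 186, the DNAlig3 region at -1269 bp 366, 257 and 323, and the region at -1236 bp from stck, which encodes the focal adhesion protein PINCH, 371, 232 and 254. A weaker CG3149 member at -1585 bp took the same ranks as the one at -1326 bp, so these may not be independent sites. None of the 12 fell below rank 416 in any replicate, and of their nearest genes CycB alone had a promoter summit, meaning an optimal summit at most 500 bp from a TSS.

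**Figure D1:**
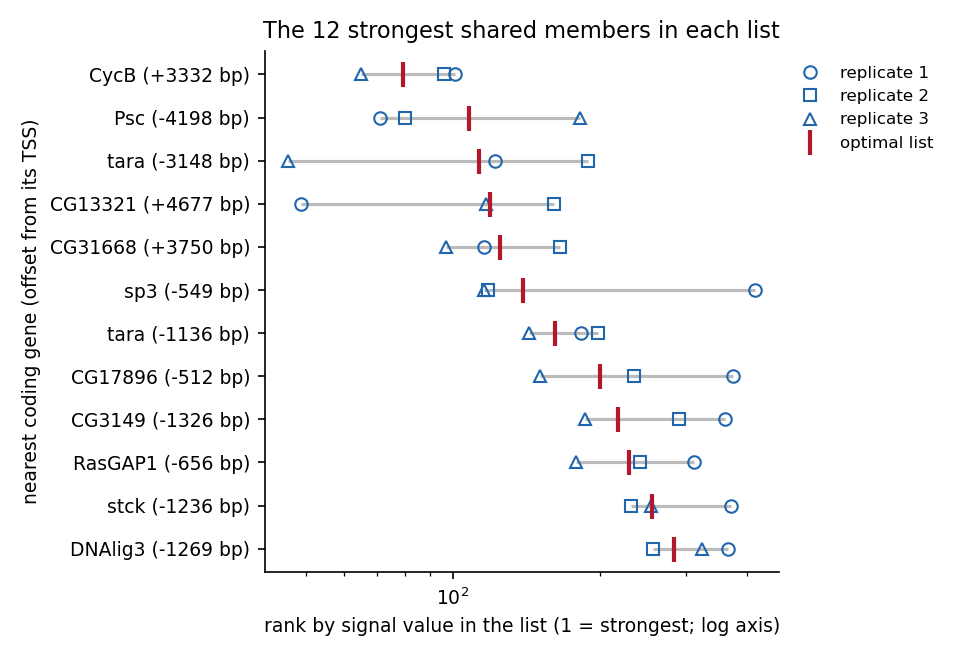
Rank by signal value (horizontal axis, logarithmic, 1 is strongest) of the 12 strongest members that the top list of every replicate overlaps, with 1 open symbol per replicate, a grey line over their range and a red bar for the optimal list. The CycB region sits at ranks 65 to 101 in the replicates, the sp3 region spans ranks 116 to 416, and the tara region at -3148 bp 46 to 189.

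Some genes had several members. The 635 members had 518 nearest coding genes, 3.71% of all 13945. Only 6402 of the 13945 are the nearest coding gene to any base that meets the position rule, so the others could not be counted. Of the 518, 421 had 1 member, 97 had 2 or more, 14 had 3 or more and 6 had 4. Those 6 were tara, CG13898, NimC3 (a phagocytosis receptor of the Nimrod family), CG43245, Gr93a (a gustatory receptor) and chrb (an inhibitor of TOR signalling). They differ in layout and in strength. The tara and chrb members were all upstream, but the strongest at chrb had a signal value of 277 against 1694 at tara. CG13898, CG43245 and Gr93a had members on both sides of the TSS, the strongest with signal values of 667 (1139 bp downstream), 613 (4662 bp downstream) and 371 (3459 bp upstream). The 4 NimC3 summits lay from -2429 to -1077 bp, and 1 of the 4 was in the top list of every replicate; its ranks were 654, 743 and 1694. Counted as separate regions after overlapping ones were merged, 81 genes had at least 2, 9 at least 3 and 2 at least 4.

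**Figure D2:**
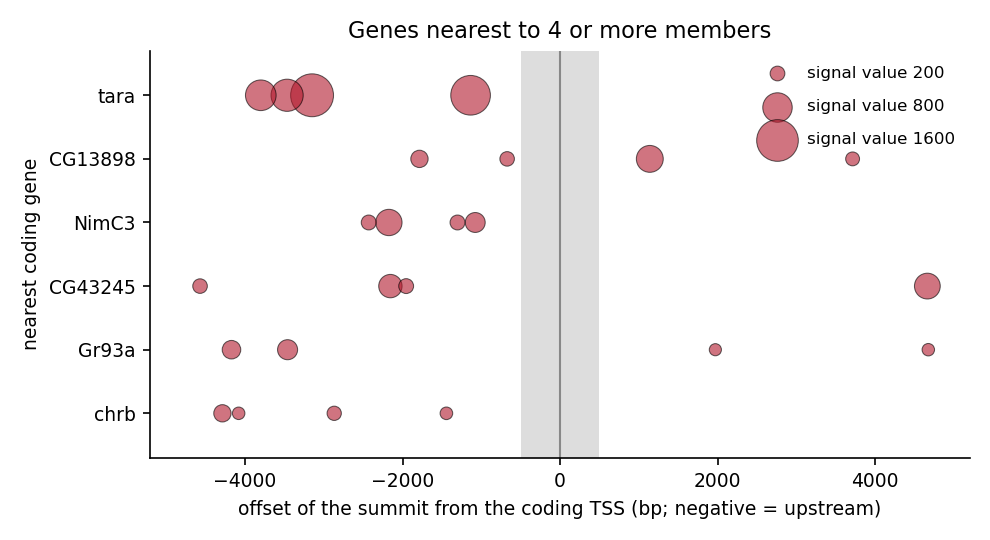
Position of each member at the 6 genes that are nearest to 4 members, as the offset from the coding TSS in bp (negative is upstream); the area of a circle is proportional to its signal value and the grey band is the 500 bp on either side of the TSS that the rule leaves out. The largest circles are the tara summits at -3148 and -1136 bp, and chrb has only small ones, up to a signal value of 277.

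Bases that meet the position rule make up 13.07 Mb, 9.78% of the assembled bases on the 6 chromosome arms, and held 48.6 members per Mb (49.0 ± 0.385, SD over the 3 replicates' own lists cut to the same 7827 regions). Intergenic DNA farther than 5000 bp from a coding TSS held 22.0 summits per Mb, gene bodies at the same distance as the members 45.6, and DNA within 500 bp of a TSS 235. The members' density was therefore 2.21 times that of far intergenic DNA, and 2.38, 2.27 and 2.27 times in the 3 replicates.

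Within the window, density fell with distance. From 500 to 1000 bp there were 150 members, 71.9 per Mb, and the replicates gave 71.4, 77.7 and 69.0. From 1000 to 2000 bp there were 198, 57.5 per Mb (replicates 58.3, 56.9 and 55.7), and from 2000 to 5000 bp 287, 38.1 per Mb (39.3, 37.4 and 39.8). The 3 ranges of replicate values do not overlap. The nearest bin was 1.89 times as dense as the farthest (1.88 ± 0.178 over replicates). Gene-body summits fell less steeply, from 56.3 to 39.2 per Mb, a ratio of 1.44. Intergenic minus gene-body density was 16.1 ± 4.81 per Mb in the nearest bin (higher in 3 of 3 replicates), 8.42 ± 0.583 in the middle bin (3 of 3) and 0.598 ± 0.641 in the farthest (2 of 3); a two-sided exact sign-flip permutation test over 3 replicates gave p = 0.25, 0.25 and 0.5, where 0.25 is the smallest value 3 replicates allow. Of all members, 22 lie in a merged region that also holds a summit within 500 bp of a TSS; without them the nearest bin was 1.61 times as dense as the farthest.

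**Figure D3:**
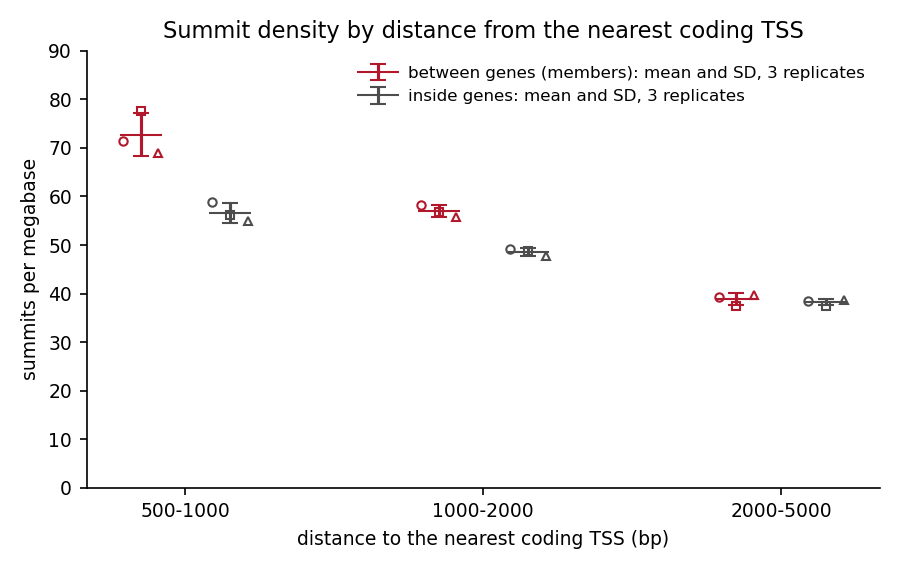
Summits per megabase of eligible sequence (vertical axis) by distance to the nearest coding TSS in bp, for summits between genes and inside genes; open symbols are the 3 replicates, horizontal marks their mean and bars 1 SD. Between genes the mean falls from 72.7 to 38.8 per Mb, and in the farthest bin both kinds of sequence overlap.

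Distance did not sort members by strength: Spearman's rho between distance and signal value was -0.04 over the 635 members, a description over regions of 1 list, and the 3 strongest members of all were each over 3000 bp from a TSS. Median signal values by bin were 239, 228 and 218. At the near limit, the members at 502 bp (CG42566, signal value 286) and 503 bp (Npc2b, 402) were counted, while summits at 498 bp (CG5973, 201) and 500 bp (CG12402, 562) were not. At the far limit, summits at 4960 bp (CG12290, 266) and 4974 bp (exex, 145) were counted and those at 5015 bp (CG12523, 194) and 5025 bp (CG4218, 349) were not.

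Most members, 486 of 635 (76.5%), were upstream of their nearest coding TSS, against 69.3% of the eligible bases; the replicates gave 76.2 ± 1.51% (n = 3). By bin from near to far the upstream share was 95.3, 80.8 and 63.8% (replicates 96.9 ± 0.924, 79.8 ± 0.539 and 63.0 ± 1.49%), beside 87.8, 73.8 and 62.1% of the eligible bases, which themselves lie mostly upstream close to a TSS. By the orientation of the flanking genes, 237 members (37.3%) sat between divergent genes against 31.1% of eligible bases, 314 (49.4% against 52.3%) between genes in tandem, and 84 (13.2% against 16.4%) between convergent genes. On the 5 large arms, members per Mb of eligible sequence ran from 41.7 on 2R to 58.6 on 3L, with 54.0 on 2L, 46.7 on X and 42.3 on 3R, and 2L and 3L were the highest of the 5 in each replicate. Chromosome 4, with 4 members, had 41.1 per Mb, and 71.9, 41.1 and 61.7 in the replicates, so its place in the order is not fixed. Transposable elements held 2 members (0.315%), and 3, 3 and 4 in the replicates, against 6.30% of eligible bases; how the authors treated reads that map to several places is not given in the sources used here, and its part in that count was not tested.

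The position rule looks at coding starts only, and 49 members (7.72%) were within 500 bp of the TSS of a noncoding gene, against 3.25% of eligible bases. The replicates held 57, 43 and 52 such regions, 7.91 ± 1.08%. Some of the 49 may not be independent sites. The members beside lncRNA:CR45355 took the same replicate ranks (1227, 1199 and 1428), as did those beside lncRNA:CR46000 (3553, 4517 and 6534). Of the 49, 47 were beside genes of the class ncRNA (long noncoding, antisense and host RNAs), 1 beside a snoRNA and 1 beside a tRNA. Their median signal value was 289, against 221 for the other members. The strongest was the Psc region, 175 bp from the start of lncRNA:CR44339. Others chosen for their names, after their values were seen, lay 92 bp from Uhg4, a host of small nucleolar RNAs (signal value 851), 194 bp from flam, the locus of piRNAs that silence transposons in the ovary (386; ranks 4538, 2020 and 1954), and 1 bp from the start of roX1, an RNA of the dosage compensation complex (140; ranks 4365, 5569 and 4810). The flam and roX1 regions were in the top list of every replicate but far from the strongest.

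Members ranked below promoter regions and above far intergenic ones. On a scale where 0 is the strongest region of a list and 100 the weakest, their median rank was 55.5, 53.5 and 53.8 in the replicates, or 54.3 ± 1.06 (SD, n = 3). Regions within 500 bp of a TSS had 42.3 ± 1.39, a difference of 11.98 ± 1.66 points. Gene-body regions at the same distance had 51.8 ± 1.27, a difference of 2.51 ± 1.52, and far intergenic regions 62.8 ± 2.98, a difference of -8.56 ± 3.29. Each difference had 1 sign in 3 of 3 replicates, and each gave p = 0.25 in the exact sign-flip permutation test, the smallest possible. In the optimal list the members' signal values ran from 129 to 1903 with a median of 227. They made up 1 of the 100 strongest regions (replicates 2.33 ± 0.577%), 56 of the 1000 strongest (5.6%; replicates 5.63 ± 0.306%) and 295 of the 4000 strongest (7.38%; 7.43 ± 0.195%), so their share was lower at the top of the list.

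**Figure D4:**
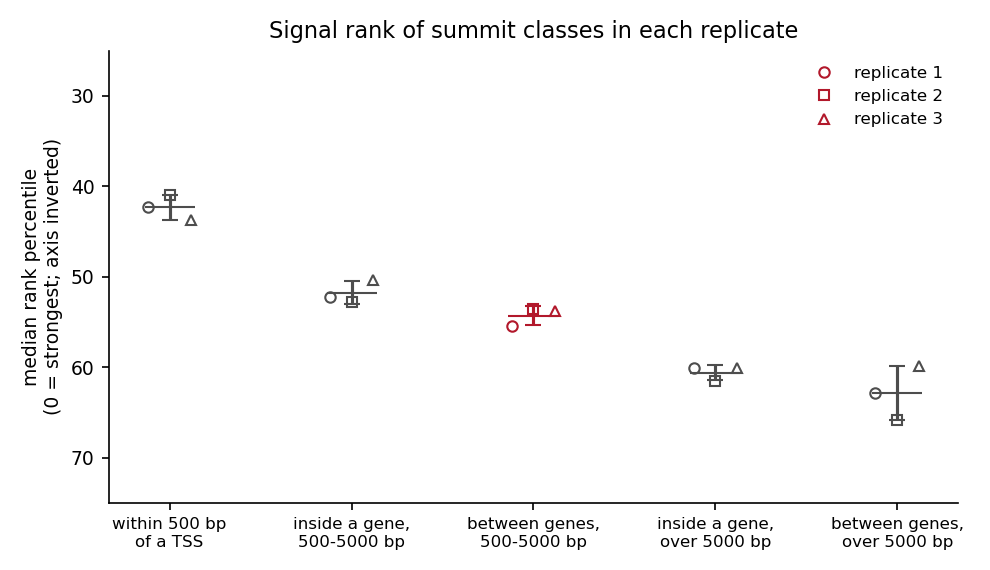
Median rank percentile by signal value (vertical axis, inverted, 0 is strongest) of each class of summits by position, with 1 symbol per replicate, the mean as a horizontal mark and bars of 1 SD. Members (red, 54.3 on average) sit close to gene-body summits at the same distance (51.8), below promoter summits (42.3) and above far intergenic summits (62.8).

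The top list of every replicate, its 7827 strongest regions, overlapped 432 of the 635 members by at least 1 bp (68.0%, interval 64.2 to 71.6%), while the same count over all optimal regions gave 74.0%. The list itself was picked by the authors for reproducibility, so these shares describe it and are not independent support for a region. Replicate 1 overlapped fewer members, 507, than replicates 2 and 3, with 581 and 567. No member was missed by all 3 top lists, and the full replicate lists, of 29373, 30000 and 30000 regions, all overlapped 623. Sharing followed strength: with the optimal list cut into 4 equal parts by signal value, all 122 members in the strongest part were shared, then 157 of 166, 113 of 166, and 40 of 181 in the weakest part, or 100, 94.6, 68.1 and 22.1%. Over all optimal regions the shares were 99.4, 95.7, 72.8 and 28.0%, so the fall belongs to the whole list. Across members found in both lists, Spearman's rho between replicate signal values was 0.76 for replicates 1 and 2 (n = 626), 0.65 for 1 and 3 (n = 623) and 0.80 for 2 and 3 (n = 632), a description over regions rather than samples. The median member was 484 bp wide, and 408 of the 635 had exactly that width, which 4657 regions of the whole list share, so region width says little about most members. At the ey, Alp13 and tei members, which have that width, the summit stood at the middle of the region.

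For 176 members (27.7%, interval 24.3 to 31.4%) the nearest coding gene also had a promoter summit, and over all coding genes the share was 30.2%. All coding genes include those with no eligible sequence nearest to them, so the shares rest on different sets of genes. With a promoter window of 250 bp the shares were 15.3% and 24.4%, so the distance between them depends on that window. Counted by gene, 148 of 518 nearest genes (28.6%) had one. By distance the share was 35.3, 25.3 and 25.4% in the 3 bins, the nearest bin being the one that holds regions running into a promoter summit. Without the 22 members that run into one, the share over all members was 25.1%, an alternative chosen after seeing the data. Among the 176, 103 members were weaker and 73 stronger than the promoter region of their gene. The foxo member at -3318 bp, beside the gene of the Forkhead factor of insulin signalling, had a signal value of 1119 against 631 at the promoter, and the CycB member 1903 against 197. The by member at -1314 bp, beside the gene of tensin, was the weaker one, 1014 against 1705.

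Gene groups were counted by how many of their genes were the nearest coding gene of a member, beside 3.71% over all coding genes. Both shares include genes with no eligible sequence nearest to them, which could not be counted. Because groups differ in how much intergenic DNA surrounds them, members per Mb of eligible sequence nearest to the group are given too, beside 48.6 over all; most groups rest on a few members. GATA and Forkhead factors had the highest share of the groups counted, 6 of 18 genes (33.3%): CHES-1-like, bin, foxo, slp1, slp2 and srp. They had 8 members, 131 per Mb, and 10, 9 and 9 members in the replicates. The strongest were at foxo (1119), slp2 (1086 at -4327 bp; replicate ranks 590, 410 and 215) and bin, the FoxF gene of visceral muscle (983 at -1311 bp; ranks 175, 278 and 987). The member at srp, the GATA factor of blood and fat body, was weak, 188 at -1515 bp.

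Of the homeobox genes outside the Hox and segmentation sets, 8 of 59 (13.6%) were nearest to a member. Their density was 48.0 members per Mb, and 37.3, 32.0 and 53.3 in the replicates, a range that holds the value over all genes, and the strongest, at zfh2 on chromosome 4, had a signal value of 298. The 8 Hox genes had no member, on 0.0215 Mb of eligible sequence, too little for a count of 0 to be read as low. Of 9 pair-rule genes, slp1 and slp2 had 3 members (58.1 per Mb; 3, 4 and 3 in the replicates). Both genes are also in the GATA and Forkhead group, so these 3 members are counted in both groups. Among 12 gap and maternal genes only bcd, the anterior determinant, had one (signal value 229 at -1462 bp; 18.5 per Mb, with 2, 1 and 1 members in the replicates). The 28 segment polarity and signalling genes had 4 members (75.7 per Mb; 5, 4 and 4 in the replicates). Of these, fz, a Wnt receptor gene, had the strongest (805 at -1750 bp; ranks 402, 504 and 965), followed by dpp, a BMP ligand gene (327), and pnt, an Ets factor gene of Ras signalling (255). The 2 fz summits lay 204 bp apart, so they may not be independent sites. Of 19 proneural and neuroblast genes only esg, a Snail family gene, had a member (150.6; 19.0 per Mb, with 0, 0 and 1 in the replicates), and it was outside the top list of replicates 1 and 2.

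In the E(spl) complex, whose genes are targets of Notch signalling, 2 of 11 genes were nearest to a member: E(spl)malpha-BFM (signal value 774; ranks 562, 816 and 565) and E(spl)m3-HLH (396). That is 98.8 per Mb, with 3 members in each replicate. Of 16 ecdysone response genes, Blimp-1, Eip78C and Hr38 had 4 members, the strongest at Hr38 (247), on 0.0208 Mb of eligible sequence, or 192 per Mb, with 3, 5 and 4 in the replicates. The 2 Blimp-1 summits lay 206 bp apart, so they may not be independent sites. Of 28 Polycomb and Trithorax group genes, Psc, jing and ph-d had 5 members on only 0.0159 Mb of eligible sequence, 315 per Mb; the replicates held 5, 5 and 3. The ph-d pair, at -757 and -956 bp in 1 region, had signal values of 758 and 475 and ranks of 282, 383 and 2800. Replicate 3 placed that region far lower than the other 2.

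Housekeeping groups are given with their promoter summits. Among 86 cytosolic ribosomal protein genes the strongest member lay beside RpS23 (363), and 71 of the 86 had a promoter summit. Of 73 mitochondrial ribosomal protein genes 1 was nearest to a member, mRpL21 (170; outside the top list of replicate 1), while 45 had a promoter summit; on 0.00747 Mb of eligible sequence that 1 member makes 134 per Mb, and the replicates held 0, 1 and 1. Translation factors (51 genes), aminoacyl-tRNA synthetases (35) and architectural and insulator proteins (20) had no member, while 26, 21 and 13 had a promoter summit. Those last 3 groups have 0.0337, 0.00145 and 0.00369 Mb of eligible sequence, also too little for a count of 0 to be read as low. Large tissue-specific families had members at scattered genes: 6 of 179 chemoreceptor genes (33.8 members per Mb; strongest Gr89a, 644), 8 of 122 cuticle protein genes (47.7 per Mb; Cpr76Ba, 705) and 4 of 83 cytochrome P450 genes (42.6 per Mb; Cyp6v1, 333). Promoter summits were found at 1, 0 and 8 genes of these 3 families.

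The DNA under the summits was low in G+C. Within 50 bp of the summit members averaged 31.9% G+C, against 43.3% in flanks of the same total length 200 to 250 bp away and 40.4% in the 125954 eligible 101-bp tiles. The centre was lower than the flanks in 497 of 635 members (78.3%), and centres ranged from 11.9 to 71.3%. In the replicates' own lists the centre averaged 32.6, 31.7 and 33.3%, and centre minus flank was -10.3 ± 0.597 points (n = 3). The trough was present in each of 4 equal parts of the members by strength, at -10.6, -10.00, -12.7 and -12.4 points from strongest to weakest.

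The trough was not limited to members. It was -6.99 ± 0.815 points at promoter summits, -9.86 ± 1.31 at gene-body summits of the same distance and -12.7 ± 1.23 at far intergenic summits. The members' trough was deeper than that at promoters by 3.29 ± 0.591 points (3 of 3 replicates; exact p = 0.25) and shallower than the far intergenic one by 2.46 ± 0.893 (3 of 3; p = 0.25). From gene-body summits it differed by -0.417 ± 0.818 points (exact p = 1), within the spread between replicates. Runs of 6 or more A or T bases took up 27.5 of the 101 centre bases on average, 14.7 in flanks and 18.0 in tiles; 603 centres (94.96%) held at least 1 run, against 84.1% of tiles and 93.9% of all optimal summits.

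**Figure D5:**
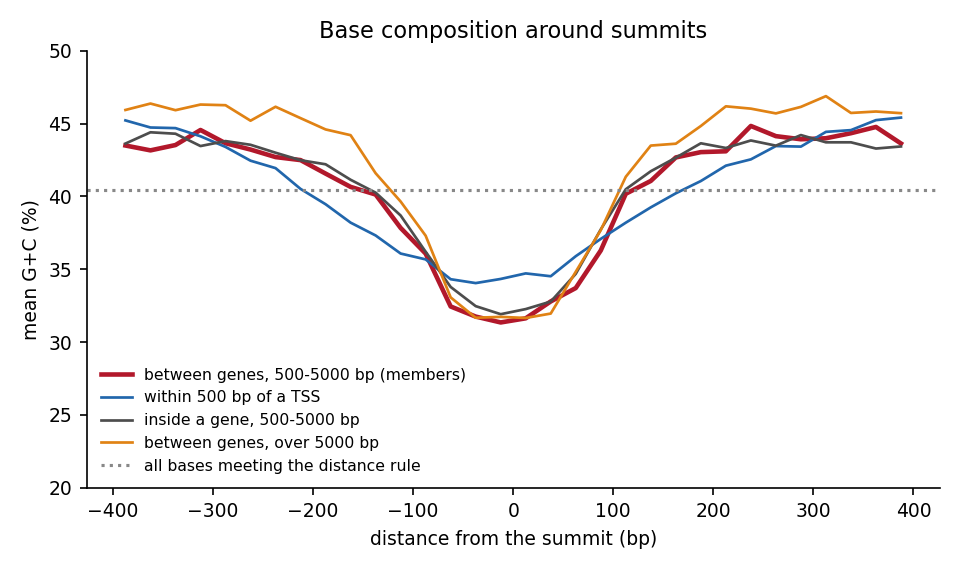
Mean G+C percentage (vertical axis) in 25 bp steps by distance from the summit in bp for 4 classes of summits in the optimal list, with the mean of all eligible sequence as a dotted line. Members (thick red) fall to about the level of gene-body and far intergenic summits at the centre, 31.9% on average within 50 bp, while promoter summits have a shallower and wider dip, 34.4%.

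Of 31 short words searched on both strands, each known as the core of a binding site or as a simple repeat, 1 (3.23%) was found in more centres than flanks and 5 (16.1%) in fewer, by an exact McNemar test with Benjamini-Hochberg adjustment over the 31. The test counts regions, not samples, so it describes this list. The word TATAAA, the TATA box, was in 148 centres (23.3%), 69 flanks (10.9%) and 13.4% of tiles, exact McNemar adjusted p = 2.2e-07; the difference was 10.4, 13.9 and 11.0 points in the replicates. Over all optimal summits 23.4% of centres held it, so the members' share is that of the whole list. The 15 words made of the same 4 A and 2 T letters, counted with their complements, were all more frequent in centres, by 6.30 to 19.2 points, and TATAAA at 12.4 was 7th of the 15; the part of base composition was not tested. Words lower in centres were GAGAG, the site of GAGA factor (47 centres, 94 flanks), GTGTGT, the site given for Combgap (23 and 70), CACACACA (3 and 32), AGGAC, the Tramtrack core (25 and 54), and GGAATG, the Scalloped core (16 and 38). All 5 hold more G+C than the centres do, and here too the part of base composition was not tested. Tiles held them at 10.3, 6.83, 2.31, 10.9 and 5.05% in that order, beside 14.8, 11.0, 5.04, 8.50 and 5.98% of member flanks. Member centres held them at 7.40, 3.62, 0.472, 3.94 and 2.52%, and centres of all optimal summits at 8.38, 4.60, 0.869, 4.56 and 3.22%. The drop was not limited to members. GAGAG was in 9.67% of gene-body centres and 18.6% of their flanks, and in 7.75 and 13.7% at promoter summits. For members, centre minus flank in the replicates was -5.88, -7.03 and -7.55 points for GAGAG and -5.11, -4.22 and -5.97 for AGGAC. The other words differed less in every replicate than in the optimal list. GTGTGT gave -4.49, -5.94 and -5.66 against -7.40, CACACACA -2.48, -3.91 and -3.62 against -4.57, and GGAATG -0.929, -2.34 and -2.20 against -3.46. The AGGAC call was lost in the stronger 50% of members (exact McNemar adjusted p = 0.31). It was also lost among the 455 members in the top lists of replicates 1 and 3 (exact McNemar adjusted p = 0.11). The same held for the 476 in those of replicates 1 and 2 (0.26). The GAGAG call was lost in the stronger 50% (0.078), and that of GGAATG within 25 bp of the summit (0.18). The stronger 50% holds 317 members, so fewer regions were tested. There GAGAG gave -6.62 points against -7.40 over all members, and AGGAC -3.79 against -4.57. TATAAA kept its call there, at 8.20 points against 12.4 (exact McNemar adjusted p = 0.047). A match to CACACACA is also a match to GTGTGT on the other strand, so these counts overlap.

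Words known from housekeeping promoters are given beside promoter summits, with no test between the classes. CGATA, the core bound by BEAF-32, was in 11.3% of member centres, 10.2% of flanks and 10.04% of tiles, against 24.9% of promoter summit centres. It was in 9.62% of centres of gene-body summits at the same distance and 9.49% of far intergenic centres. TATCGATA, the DNA replication-related element, which contains CGATA, was in 6 centres (0.945%) and no flank, exact McNemar adjusted p = 0.097, with 0.212% of tiles and 4.47% of promoter centres. Those 6 members, at ey, Alp13, SrpRbeta, CG13577, slbo and tei, were named after their values were seen and had signal values from 132 to 207, all in the weaker part of the list. GGTCACACT was in 1 member centre (0.157%), the slp2 region, against 1.47% of promoter centres and 0.0405% of tiles. Among words not tied to housekeeping promoters, Zelda's CAGGTA was in 2.68% of member centres and 1.26% of flanks, exact McNemar adjusted p = 0.21. The homeodomain word TAATTA was in 11.5 and 7.87%, exact McNemar adjusted p = 0.097. Promoter summit centres held them at 1.75 and 9.97%.

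All 7-base words were ranked on the members of 2L and 3L and counted on the 333 members of the other arms. The first 5, with their complements and all of A and T, were TTAAAAA (55 centres and 27 flanks), AAAATAA (39 and 34), TAATATA (28 and 11), AAATAAT (35 and 19) and AATATAA (51 and 17). On average they were in 6.01 percentage points more centres than flanks. Ranked on 3R and X instead, 3 of the first 20 words held a C or G: AAACTAA (31 centres and 15 flanks of the other 406 members), AAATGTA (45 and 17) and AACTAAA (29 and 14).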

How the data were processed

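Per the labels, chromatin of GFP-tagged embryos was sonicated to fragments of 200 to 800 bp, precipitated with anti-GFP and sequenced in 3 biological replicates. The authors deposited region lists on dm6, 1 per replicate and 1 optimal list thresholded on the irreproducible discovery rate (IDR). Each deposited region has a signal value (a score of enrichment with no stated scale), a −log10 q-value and a summit offset from its start. The read depth, aligner, peak caller, control handling and IDR threshold are each "not given in the sources used here", so no interval covers read counting. The −log10 q-value was not used in any result. Exact binomial intervals treat regions as independent, which neighbouring regions are not.

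Summits were placed in classes with the Ensembl release 115 BDGP6 annotation and the RefSeq Release 6 genome, whose arm lengths match dm6, on 6 arms. Eligible bases were counted by the same rule. Each replicate list was cut to its 7827 strongest regions by signal value. Differences between classes were tested over the 3 replicates by exact sign-flip permutation, and words by the exact McNemar test; the word test and the class assignment were also checked on simulated data. Python 3.11.15, numpy 2.4.6, pandas 2.3.3, scipy 1.17.1, statsmodels 0.14.6 and matplotlib 3.10.9 were used. Regions named are the 12 strongest that every replicate's top list overlaps, the 3 strongest per distance bin, the strongest beside each gene group, the 2 on either side of each limit, and the 5 words of largest difference; any other region or word was named after its values were seen. The members, gene groups and words were chosen with earlier results of these data known. Alternatives varied the limits, signal threshold, overlap, windows and replicates.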

Additional observations from a re-analysis of the deposited data

How the results depend on the processing

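The share of optimal regions that are members (8.11%) moved little with the list: 8.25% in the replicate 1 list, 8.37% with 1 summit per merged region, and 8.15 to 8.22% when each replicate was left out of the replicate mean. It was lower among stronger regions, 7.36% in the stronger 50%, 7.38% of the 4000 strongest and 5.6% of the 1000 strongest. It followed the rule's own limits, 12.2% with a near limit of 250 bp, 6.20% with 1000 bp and 9.61% when starts of every biotype counted. Members shared by every replicate (68.0%) fell to 49.1% with a reciprocal overlap of 50% and 57.5% with summits within 100 bp, and rose to 96.9% in the stronger 50%, 100% of the 1000 strongest and 71.7 to 82.0% with 1 replicate left out, where fewer lists must match. The rank differences between classes kept their sign in every alternative: 11.4 to 14.2 points to promoters, 2.03 to 3.40 to gene bodies and -9.82 to -6.70 to far intergenic regions. The near-to-far density ratio (1.89) was 1.73 to 2.01 with 1 summit per merged region, in the stronger 50% and with 1 replicate left out, and 1.61 without members that run into a promoter summit, an alternative chosen after seeing the data. The share of nearest genes with a promoter summit (27.7%) was 15.3% with a promoter window of 250 bp, when 24.4% of all genes had one, and 20.5% in the stronger 50%, when 19.7% did; leaving out a replicate gave 26.6 to 27.5%. Words higher in centres numbered 5 instead of 1 with 100 bp on either side, and words lower numbered 3 instead of 5 in the stronger 50% of members, where GAGAG and AGGAC no longer passed. That set holds 317 of the 635 members. The 5 leading 7-base words were in 6.995 points more centres than flanks when ranked on 3R and X, against 6.01. The replicate mean was 5.42 to 5.87 when each replicate was left out of it. Chosen after seeing the data, the G+C difference was -10.2 points with 100 bp on either side, -12.2 with 1 summit per merged region and -10.3 in the stronger 50% of members, against -11.5. The share within 500 bp of a noncoding TSS (7.72%) was 10.4% in the stronger 50% and 7.25% with 1 summit per merged region. It was 8.45 to 9.67% among the members that both other top lists overlap when 1 replicate is left out. The replicates' own lists gave 8.82, 6.72 and 8.18%. Of the 18 groups of coding genes, 11 had a share above that of all genes, and 9 to 11 did in the alternatives. That share takes no account of eligible sequence. Among the 11, gap and maternal (18.5), proneural (19.0), P450 (42.6), cuticle (47.7) and homeobox (48.0) genes were below the 48.6 members per Mb over all. The others of the 11 were above it. Where the construction of an alternative does not show it, the cause was not tested. No paired analysis was possible because the study has 1 group, so no groups share replicate numbers; class differences were taken within each replicate, as reported.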
